A study of Mus musculus with 12 samples.

Results

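The comparison of MLN4924 with its DMSO solvent control in normoxia used 6 of the 12 libraries of the series, 3 from GC-2 cells given 1 µM MLN4924 and 3 from GC-2 cells given DMSO, all kept under normoxia for 24 h. They were chosen by their treatment labels. The other 6 libraries, 3 with DMSO and 3 with MLN4924 in hypoxia (1% O2), were used only to test whether the response to the inhibitor differed with oxygen. GC-2 is a mouse cell line labelled wild type and described by the submitters as type B spermatogonia. GC-2 lines in common use were immortalised with the SV40 large T antigen and a temperature-sensitive p53, which the labels do not mention. The series text describes them as biological replicates and does not say how the cultures were separated, so p-values measure the spread between these libraries. The sample titles name GC-2 throughout, while the cell type label counts upward from GC-2 over the samples, and all libraries were taken as GC-2.

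MLN4924 (pevonedistat) inhibits the NEDD8-activating enzyme, a heterodimer of Nae1 and Uba3. NEDD8 is a small ubiquitin-like protein whose attachment to cullins switches on the cullin-RING ubiquitin ligases, so the inhibitor stabilises proteins that these ligases mark for the proteasome. Known substrates include the antioxidant transcription factor NRF2 (through Keap1 and Cul3), the hypoxia factor HIF-1α (through Vhl and Cul2) and the small GTPase RhoA (through Cul3 with Kctd13 or Tnfaip1). Others are the replication licensing factor Cdt1 (through Cul4 and Dtl), the CDK inhibitors p21 and p27 and the NF-kB inhibitor IκBα (through Cul1 with Skp2 or Btrc). The libraries measure RNA, and the protein levels of these substrates were not measured.

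Levels are in FPKM (fragments scaled for transcript length and library size), computed by the authors, and are given as the 3 libraries of a group or as mean ± SD (n = 3). A log2 difference is MLN4924 minus DMSO on the log2(FPKM + 1) scale, with its standard error from limma, a scale on which low genes show less than their full change. "Rose" and "fell" are used where limma's adjusted p was under 0.05. The 6 libraries summed to 534946 to 557779 FPKM, between 11440 and 11644 genes per library reached 1 FPKM, and the mean rank correlation of a library with the others of its group was 0.977 to 0.98. FPKM keep no read counts, so the sequencing depth is unknown. Most germ cell markers were low or absent: none of the 6 spermatocyte and spermatid markers in the file reached a mean of 1 FPKM. Of 11 spermatogonial markers 3 did, and Gfra1, Etv5 and Uchl1 reached 1 FPKM in 3 or more libraries. Etv5 rose and Gfra1 fell. The 11 summed to 25.6 to 27.8 FPKM with DMSO. Kit was listed at 0.02, 0 and 0 FPKM with DMSO and Ddx4 at 0.04, 0.02 and 0 FPKM. Of 13 fibroblast and peritubular markers in the file, 8 reached 1 FPKM, while Dcn, Thy1, Myh11, Des and Tcf21 did not in 3 or more libraries. S100a4 was at 1761 ± 63.4 FPKM with DMSO and 1054 ± 15.97 FPKM with MLN4924, and Vim, vimentin, at 743 ± 14.02 FPKM with DMSO and 575 ± 5.69 FPKM with MLN4924. Most marker RNAs of the labelled cell type were thus below 1 FPKM, but not all. In bulk RNA, fewer cells of a type and less RNA per cell cannot be told apart, which holds for every marker below.

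Of the 11723 genes that reached 1 FPKM in 3 or more of these libraries, 1936 (16.5%) rose and 2159 (18.4%) fell with MLN4924, 34.9% in all. Most differences were small, with a median log2 difference over all tested genes of -0.027 and a median standard error of 0.089. A change of at least 2-fold was seen for 108 genes that rose (0.921%) and 107 that fell (0.913%). Separation without a call was common, since the 3 MLN4924 libraries lay above the 3 DMSO libraries for 22.9% of tested genes and below them for 27%. A fit over all 12 libraries, whose spread includes the hypoxia groups, called 1149 genes higher and 1318 lower. Among those libraries DMSO hypoxia replicate 1 stood apart from its group (mean rank correlation 0.926). Its part in the smaller counts of this fit, here and below, was not tested. Shares of called genes below from the 6 libraries are to be read against the 16.5% and 18.4%. The lists were chosen with earlier results of these data known, so a share past these values is no test of a list. Counts from the 12-library fit are to be read against its own 1149 higher and 1318 lower of 12311 genes. With 1 of the 6 libraries left out, 1518 to 1659 genes were higher and 1586 to 1777 lower, of 11479 to 11565 tested.

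**Figure D1:**
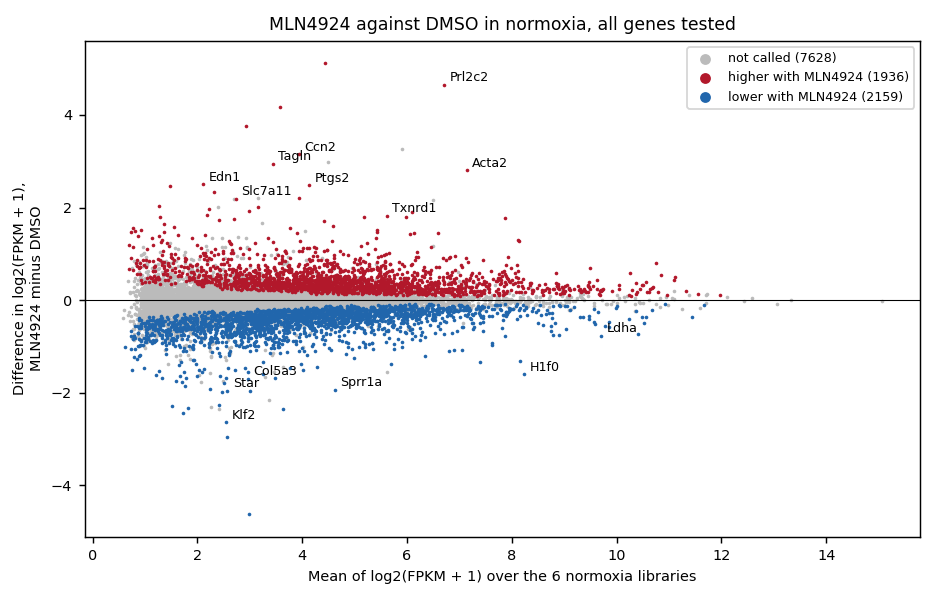
Each point is 1 of the 11723 tested genes, with its mean log2(FPKM + 1) over the 6 normoxia libraries on the x axis and the MLN4924 minus DMSO difference on the y axis. Red points rose (1936), blue points fell (2159) and grey points passed no threshold, and named genes such as Prl2c2, Acta2 and Klf2 lie far outside the central band.

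Genes with some of the largest increases are given first. Prl2c2, a proliferin of the prolactin family, was at 19.7, 21.8 and 18.7 FPKM in the DMSO libraries and 542, 510.4 and 522 FPKM in the MLN4924 libraries. Every treated library was far above every control library (log2 difference 4.65 ± 0.057, adjusted p = 7.36e-07), a 25.04-fold difference on the FPKM + 1 scale. Its near-identical relative Prl2c3 rose from 1.23 ± 1.003 to 27.2 ± 5.15 FPKM (3.76 ± 0.36, adjusted p = 0.000528). Prl2c5, below the filter, was listed at 0 in all 3 DMSO libraries and at 1.84 ± 1.09 FPKM with MLN4924. Fragments from these copies may have been split between them in the authors' counting, so their separate levels are uncertain. Edn1, the vasoconstrictor peptide endothelin-1, was at 0.77, 0.9 and 0.78 FPKM with DMSO and 9.13, 9.94 and 8.87 FPKM with MLN4924 (2.505 ± 0.088). Since all 3 DMSO libraries were under 1 FPKM, it passed the filter through the treated libraries alone and had to differ, so no p is given, and it has no value with a treated library left out. The same holds for Gsta1, Gsta2 and Actg2 and, with DMSO as the higher group, for Itga11, Per2, Bmf and Plekhg4, all described below. Genes of this kind are also included in the list counts below, where their direction was set by the filter. Ptgs2, the inducible cyclooxygenase of prostaglandin synthesis, was at 8.0, 5.22 and 6.36 FPKM with DMSO and 32.2, 44.2 and 46.5 FPKM with MLN4924, without overlap (2.48 ± 0.18, adjusted p = 0.0002). Lce1g, a cornified envelope gene, rose from 3.6 ± 1.52 to 16.9 ± 2.17 FPKM and Tigit, known as a lymphocyte receptor, from 1.45 ± 0.827 to 8.36 ± 1.66 FPKM. Gm45665, Rps6-ps4 and C920009B18Rik also met the rule for the 15 largest increases, with log2 differences of 5.12 ± 1.52, 4.18 ± 1.19 and 2.33 ± 0.54, but their calls did not hold with some libraries left out: adjusted p = 0.0412, 0.0358 and 0.0173 with all libraries, and up to 0.112, 0.0981 and 0.0525 with 1 library left out. Calls ended for Gm45665 without any of these 6 libraries except DMSO replicate 2, for Rps6-ps4 without any except DMSO replicate 1, and for C920009B18Rik without MLN4924 replicate 3.

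The genes with the largest decreases had varied known functions. Klf2, a Krüppel-like transcription factor known from endothelium and T cells, was at 12.8, 14.2 and 13.8 FPKM in the DMSO libraries and 0.96, 1.61 and 1.53 FPKM in the MLN4924 libraries. The groups were far apart, a 6.22-fold fall on the FPKM + 1 scale (-2.64 ± 0.13, adjusted p = 4.71e-05). Star, which carries cholesterol into mitochondria for steroid synthesis, fell from 10.7 ± 0.564 to 2.17 ± 1.24 FPKM (-1.96 ± 0.26, adjusted p = 0.00203). Star is also a Leydig cell marker: the 5 markers of that list in the file, Star included, summed to 20.8 to 25 FPKM with MLN4924 and 35.5 to 37.7 FPKM with DMSO, and 2 of them reached 1 FPKM. The 11 Sertoli cell markers summed to 36.6 to 42.9 FPKM against 43.9 to 54.1 FPKM. Their part in the result was not tested. Sprr1a, a small proline-rich envelope protein, fell from 47.4 ± 0.979 to 11.7 ± 2.06 FPKM (-1.94 ± 0.11, adjusted p = 8.12e-05). Htra3, a secreted serine protease, Efhd1, a calcium-binding mitochondrial protein, Rgcc, a regulator of the cell cycle, and Inpp5j, an inositol polyphosphate phosphatase, had log2 differences of -1.99 ± 0.12, -1.97 ± 0.075, -1.92 ± 0.15 and -1.78 ± 0.0995. The unnamed transcript 2610528A11Rik fell from 27.3 ± 3.47 to 4.55 ± 0.653 FPKM (-2.35 ± 0.12, adjusted p = 6.31e-05). Gnaq, the α subunit of the Gq protein, was at 7.49, 5.99 and 7.22 FPKM with DMSO and 0, 2.87 and 0 FPKM with MLN4924, so that 2 of the 3 treated libraries were listed at 0 (-2.33 ± 0.52, adjusted p = 0.0158). Gm1943 and Gm14822, predicted genes, were likewise listed at 0 in 2 of 3 treated libraries, and a listed 0 can be a failed estimate. Gm37401 also met the rule for the largest decreases, but its call ended in the 12-library fit (adjusted p = 0.216). Plekhg4 met the rule too, but it passed the filter through the DMSO libraries alone, so its direction was set by the filter. It was not called in the 12-library fit. The calls of Snhg9 and Gm49051 ended in that fit too, and without any 1 of the 6 libraries except MLN4924 replicate 3 (adjusted p up to 0.119 and 0.0903).

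**Figure D2:**
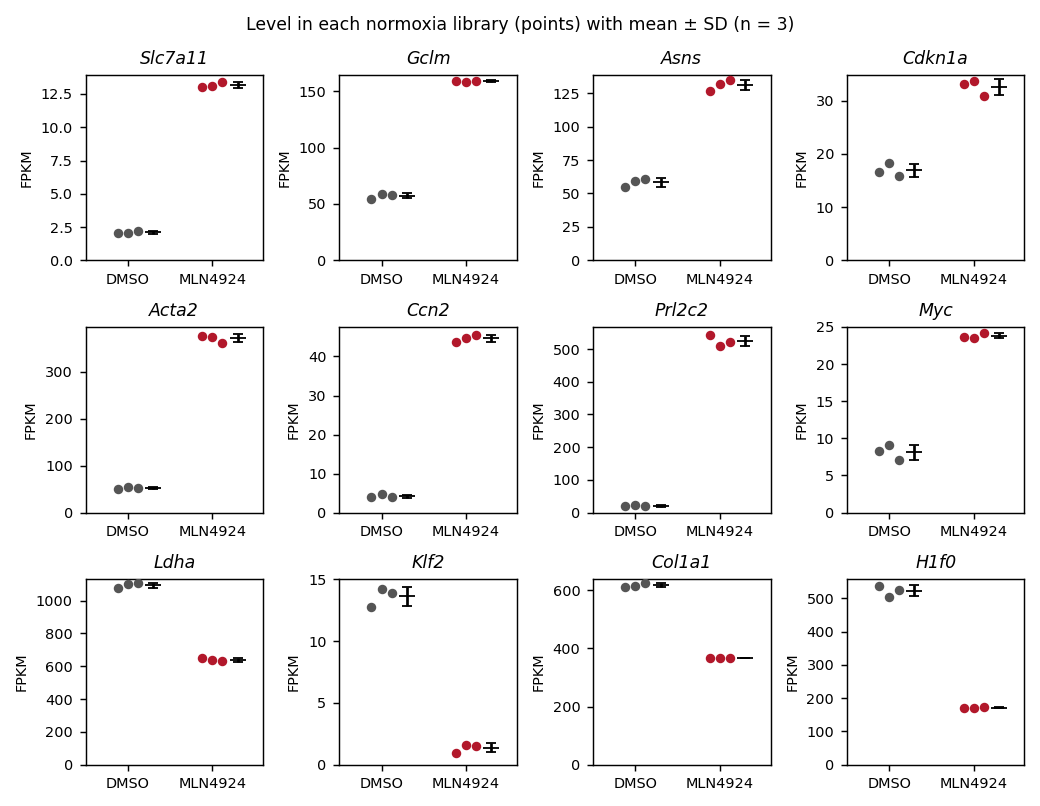
Points are the FPKM of 12 genes in each of the 3 DMSO (grey) and 3 MLN4924 (red) normoxia libraries, on linear axes from 0, with mean ± SD (n = 3) beside them. The groups overlap for none of these 12 genes, and Prl2c2, for example, goes from a mean of 20.04 to 525 FPKM.

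The RNAs of the inhibited pathway itself moved little. Of 15 NEDD8 conjugation enzymes and proteases 3 rose and 1 fell, with a median log2 difference of 0.093. Uchl3, a protease that matures NEDD8, rose from 35.9 ± 2.39 to 47.2 ± 1.89 FPKM (0.39 ± 0.057, adjusted p = 0.00301). Nae1, a subunit of the drug's target, rose from 14.6 ± 0.114 to 18.97 ± 0.885 FPKM (0.35 ± 0.05, adjusted p = 0.00249). Rbx1, the RING subunit of the ligases, fell from 77.2 ± 1.28 to 63.6 ± 2.23 FPKM (-0.28 ± 0.035, adjusted p = 0.00169). Both calls ended in the fit over all 12 libraries (adjusted p = 0.0517 and 0.14). Uba3, the other subunit of the target, was at 57.4, 58.3 and 59.9 FPKM with DMSO and 66.2, 63.3 and 70.04 FPKM with MLN4924 (0.18 ± 0.044, adjusted p = 0.0206). The 2 groups did not overlap, but its call ended in the 12-library fit and without DMSO replicate 1 or 2 or MLN4924 replicate 1 (adjusted p up to 0.0614). Nedd8 was at 119, 122 and 128 FPKM with DMSO and 137, 134 and 122 FPKM with MLN4924, overlapping ranges (0.09 ± 0.051, adjusted p = 0.221), and the E2 enzyme Ube2m differed by -0.04 ± 0.11, adjusted p = 0.81. Among 10 COP9 signalosome subunits, the complex that removes NEDD8 from cullins, Cops8 rose (log2 difference 0.34 ± 0.039) and Cops3 fell (-0.33 ± 0.041). The catalytic subunit Cops5 differed by 0.032 ± 0.038, adjusted p = 0.558, and 6 of the 10 made no call. Cul1 differed by -0.076 ± 0.045, adjusted p = 0.24.

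Of 97 tested substrate adaptors and receptors of cullin-RING ligases 16 rose and 9 fell, shares near or below those of all genes. The largest increases were in Enc1, a Kelch protein (from 11.8 ± 1.05 to 22.8 ± 0.426 FPKM), and Rhobtb3, an atypical GTPase that binds Cul3 (from 7.88 ± 0.362 to 14.6 ± 0.0608 FPKM). Socs6 and Socs2, cytokine signalling suppressors, rose by log2 differences of 0.71 ± 0.103 and 0.702 ± 0.12. Skp2, the receptor that marks p27, rose from 17.5 ± 0.979 to 22.9 ± 0.866 FPKM (0.37 ± 0.056, adjusted p = 0.00343). The receptors Keap1, Vhl, Btrc, Dtl and Kctd13 made no call, with log2 differences of -0.18 ± 0.072, -0.12 ± 0.053, -0.028 ± 0.087, 0.031 ± 0.052 and 0.13 ± 0.103. Their adjusted p were 0.102, 0.13, 0.833, 0.68 and 0.377. Kctd10, a relative of Kctd13, rose slightly, from 63.2 ± 0.796 to 69.97 ± 1.42 FPKM (0.14 ± 0.029, adjusted p = 0.0108).

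Genes known as targets of NRF2 were among the clearest increases, although the RNA of NRF2 was not called (Nfe2l2, 45 ± 0.705 FPKM with DMSO and 41.7 ± 3.27 FPKM with MLN4924, -0.11 ± 0.06, adjusted p = 0.196). Slc7a11, the cystine importer of system xc-, was at 2.05, 2.04 and 2.23 FPKM in the DMSO libraries and 13.01, 13.1 and 13.4 FPKM in the MLN4924 libraries. Gclm, the regulatory subunit of glutamate-cysteine ligase, was at 54.6, 58.7 and 58.3 FPKM with DMSO and 159, 158 and 159 FPKM with MLN4924. Txnrd1, cytosolic thioredoxin reductase, was at 25.8, 25.4 and 24.3 FPKM with DMSO and 92.01, 91.9 and 89.99 FPKM with MLN4924. In all 3 genes the treated libraries lay above every control, with log2 differences of 2.19 ± 0.068, adjusted p = 1.39e-05, 1.46 ± 0.035, adjusted p = 5.59e-06 and 1.82 ± 0.034, adjusted p = 3e-06.

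In the cystine uptake and glutathione list 8 of 17 tested members rose and 3 fell, with a median log2 difference of 0.18. Beside Slc7a11 and Gclm these included Slc3a2, its partner subunit (log2 difference 0.86 ± 0.049), Gclc, the catalytic subunit of the ligase (0.68 ± 0.036), and Gsr, glutathione reductase (0.66 ± 0.042). Gpx4, which removes lipid peroxides, fell from 449 ± 8.06 to 363 ± 14.1 FPKM (-0.31 ± 0.034, adjusted p = 0.000941). Of 16 thioredoxin and peroxiredoxin genes 7 rose and 1 fell (median 0.11), led after Txnrd1 by Srxn1, sulfiredoxin (1.43 ± 0.037), Prdx6 (0.98 ± 0.101) and Sesn2 (0.95 ± 0.053). Prdx1 and Txnip were not called (0.095 ± 0.055, adjusted p = 0.229, and 0.054 ± 0.072, adjusted p = 0.606).

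Of 22 xenobiotic detoxification genes 7 rose and 5 fell, with a median log2 difference of 0.01. Nqo1, the quinone reductase, rose from 30.5 ± 1.13 to 58.9 ± 1.19 FPKM (0.93 ± 0.039, adjusted p = 3.03e-05). The carbonyl reductase Cbr3 rose from 25.8 ± 4.04 to 66.2 ± 2.35 FPKM (1.34 ± 0.11, adjusted p = 0.000266), and the drug exporter Abcc1 from 19.9 ± 0.671 to 39.9 ± 0.5198 FPKM. Among glutathione S-transferases, Gsta1 and Gsta2, near-identical copies that may share fragments, went from 0.207 ± 0.227 to 5.57 ± 0.706 FPKM and from 0.19 ± 0.165 to 3.91 ± 0.868 FPKM. Gsta4 and Gstm1 rose by 0.68 ± 0.037 and 0.35 ± 0.032. The microsomal Mgst3 fell from 21.9 ± 0.284 to 10.2 ± 0.811 FPKM (-1.04 ± 0.065, adjusted p = 0.000113). The class as a whole did not move 1 way, since 6 of 21 tested members rose and 6 fell. The lower count was 2 or 3 without any 1 of the 3 DMSO libraries or MLN4924 replicate 1 or 3. Without any 1 of the 3 MLN4924 libraries 3 rose, of only 18 or 19 members that then passed the filter, which Gsta1 and Gsta2 did not, and the 12-library fit called 1 lower.

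Genes of NADPH supply and of iron handling also moved in both directions. Taldo1, transaldolase, and Pgd, of the pentose phosphate pathway, rose from 211 ± 1.16 to 357 ± 1.87 FPKM and from 134 ± 1.13 to 201 ± 4.84 FPKM, and Tkt, transketolase, by a log2 difference of 0.28 ± 0.033. Idh1, an NADPH-forming dehydrogenase, fell from 74.7 ± 1.64 to 52.9 ± 1.71 FPKM (-0.49 ± 0.036, adjusted p = 0.000202). The ferritin chains Fth1 and Ftl1, among the most abundant RNAs, rose from 1529 ± 43.04 to 2241 ± 14.9 FPKM and from 1857 ± 15.3 to 2613 ± 53.95 FPKM. Hmox1, heme oxygenase, rose from 75.6 ± 0.968 to 125 ± 4.61 FPKM (0.72 ± 0.034, adjusted p = 4.57e-05) and Blvrb, biliverdin reductase B, from 31.7 ± 2.45 to 62.6 ± 3.36 FPKM. Alas1, the first enzyme of heme synthesis, fell from 92.04 ± 7.301 to 52.9 ± 2.97 FPKM (-0.78 ± 0.067, adjusted p = 0.000361) and Steap3, an endosomal iron reductase, with a log2 difference of -0.802 ± 0.092. Of 20 iron and heme genes 7 rose and 4 fell. Small Maf partners of NRF2 rose modestly (Maff 0.43 ± 0.071, Mafk 0.36 ± 0.062, Mafg 0.26 ± 0.056).

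Amino acid response genes, which ATF4 is known to control, rose in many cases. Atf4 itself was at 183, 184 and 185 FPKM in the DMSO libraries and 271, 288 and 299 FPKM in the MLN4924 libraries, without overlap (0.63 ± 0.039, adjusted p = 0.000112). Chac1, which degrades glutathione, was at 11.1, 10.2 and 10.98 FPKM with DMSO and 35.3, 38.1 and 39.2 FPKM with MLN4924 (1.71 ± 0.058, adjusted p = 1.4e-05). Asns, asparagine synthetase, was at 54.8, 59.1 and 60.98 FPKM with DMSO and 127, 132 and 135 FPKM with MLN4924 (1.16 ± 0.047, adjusted p = 2.78e-05). The treated libraries of these 3 genes lay above every control. Trib3 and Trib1, pseudokinases, and Atf3 rose by log2 differences of 1.07 ± 0.09, 1.08 ± 0.088 and 1.04 ± 0.13, and Ppp1r15a, which helps to reverse eIF2α phosphorylation, by 0.49 ± 0.053. Of 20 ATF4-axis and stress factor genes tested 7 rose and 3 fell, with a median of 0.15. Ddit4, a brake on mTORC1, was among those that fell (-0.22 ± 0.048). Rescaling to 1 total gave 5 lower and the 12-library fit none. Ddit3, the death-associated factor CHOP, was at 25.8, 25.8 and 24.9 FPKM with DMSO and 25.3, 34.3 and 33.8 FPKM with MLN4924, with 1 treated library inside the range of the controls (0.27 ± 0.11, adjusted p = 0.123). Without MLN4924 replicate 1 it passed the threshold (adjusted p = 0.00264).

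Of 27 amino acid transport and synthesis genes 20 rose and 3 fell, with a median log2 difference of 0.58 against -0.027 for all genes. The serine pathway rose at each step, with Phgdh from 176 ± 7.71 to 335 ± 1.62 FPKM, Psat1 from 101.3 ± 3.43 to 192 ± 1.61 FPKM and Psph from 33.3 ± 1.15 to 67.02 ± 2.22 FPKM. So did the mitochondrial one-carbon enzymes Shmt2 (0.91 ± 0.043) and Mthfd2 (0.79 ± 0.038) and the leucine carrier Slc7a5 (0.62 ± 0.04). Of 21 cytosolic aminoacyl-tRNA synthetases 18 rose and 1 fell (median 0.40), led by Nars (0.93 ± 0.028), Lars (0.78 ± 0.032), Gars (0.72 ± 0.032) and Yars (0.64 ± 0.041). Endoplasmic reticulum chaperones did not share this: 1 of 28 rose and 9 fell (median -0.11). Xbp1, a transcription factor of the unfolded protein response, fell from 49.7 ± 2.78 to 31.6 ± 1.15 FPKM (-0.64 ± 0.052, adjusted p = 0.000295), and Hspa5, the chaperone BiP, differed by 0.0069 ± 0.044, adjusted p = 0.92. In the fit over all 12 libraries 5 of the 28 were lower.

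**Figure D3:**
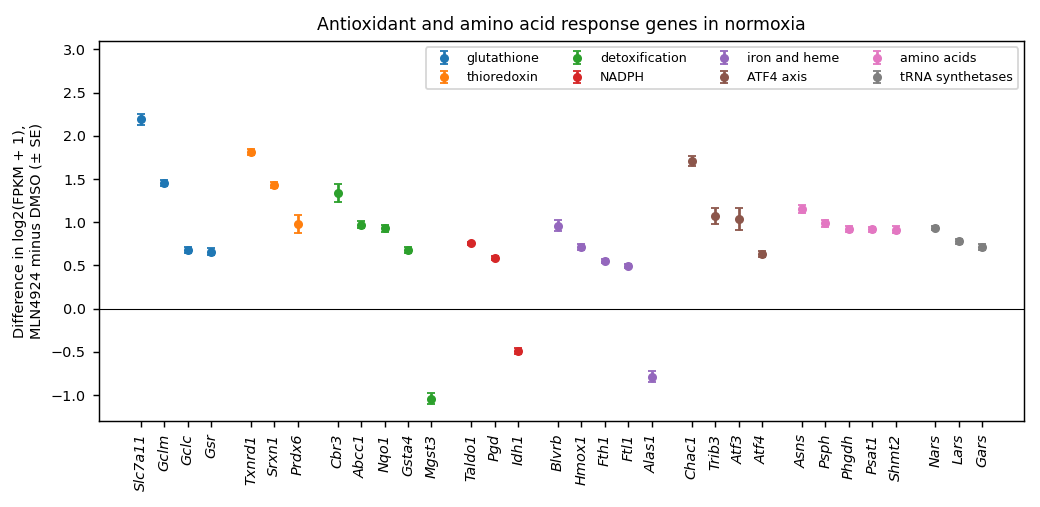
Points are log2 differences (MLN4924 minus DMSO, normoxia) with standard errors for 32 antioxidant and amino acid response genes, coloured by group. Slc7a11, Txnrd1 and Chac1 lie highest, at 2.19, 1.82 and 1.71, while Mgst3, Alas1 and Idh1 lie below 0.

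Promoter sequence was set beside these genes and the contractile genes described next, because each group has a well known DNA element. RefSeq promoters (GRCm38.p6, 250 bases before to 50 after the gene start) matched 8896 of the 11723 tested genes by symbol, 75.9%, whereas the authors' files used mm39. On either strand, the antioxidant response element core TGACNNNGC was in the promoters of 17.0% of tested genes and of 16 of 96 members (16.7%) of the 6 antioxidant, detoxification, NADPH and iron lists, close to the share of all genes. Of these 16 members 9 rose and 3 fell, and 23 of the members without the element rose too. Of all 1511 tested genes with it, 267 rose and 291 fell. The antioxidant element was also in 8 of 21 amino acid genes (38.1%), of which 5 rose and 2 fell. The amino acid response element core TGATGNAA was in 2.48% of tested genes, in 4 of 21 amino acid genes (Slc1a4, Asns, Pycr1 and Got1) and in 5 of 14 aminoacyl-tRNA synthetases, all 9 of which rose. In the ATF4 and stress list it was in 5 of 18, of which 3 rose and 1 fell. Without this element 13 of the amino acid genes, 6 of the synthetases and 2 of the stress list rose too. Of all 221 tested genes with it, 51 rose and 36 fell. The CArG box, the element of serum response factor, was in 1.52% of tested genes and in 9 of 27 SRF-list members (Srf, Actg1, Cnn2, Myl9, Myl6, Vcl, Fhl1, Fhl2 and Filip1l). All 9 rose, as did 11 of the 18 without it, and of all 135 tested genes with the box 37 rose and 19 fell. None of 25 focal adhesion genes held it, 18 of which rose. Over all promoters in the table, the 3 motifs were in 12.4%, 3.97% and 1.63%. A match is a run of letters, and binding was not measured. The stretches below, 100 bases each and written in the direction of transcription, carry a match before the start of genes described here, with the motif in capitals.
Gclm (chr3:122245377-122245476, plus strand, antioxidant element read on the opposite strand): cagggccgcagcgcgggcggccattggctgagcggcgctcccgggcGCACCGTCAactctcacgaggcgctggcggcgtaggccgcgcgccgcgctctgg
Slc7a11 (chr3:50443626-50443725, minus strand, amino acid elements): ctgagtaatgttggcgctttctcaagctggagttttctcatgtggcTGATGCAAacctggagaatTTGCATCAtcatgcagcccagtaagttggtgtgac
Chac1 (chr2:119351003-119351102, plus strand, amino acid element on the opposite strand): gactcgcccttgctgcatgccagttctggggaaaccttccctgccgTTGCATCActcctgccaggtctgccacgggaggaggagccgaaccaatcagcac
Asns (chr6:7693210-7693309, minus strand, amino acid element): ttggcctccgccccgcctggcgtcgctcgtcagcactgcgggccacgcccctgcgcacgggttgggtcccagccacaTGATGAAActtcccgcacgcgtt
Srf (chr17:46556190-46556289, minus strand, CArG boxes): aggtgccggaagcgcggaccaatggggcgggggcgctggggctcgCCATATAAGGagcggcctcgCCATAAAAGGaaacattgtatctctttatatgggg
Myl9 (chr2:156775258-156775357, plus strand, CArG box): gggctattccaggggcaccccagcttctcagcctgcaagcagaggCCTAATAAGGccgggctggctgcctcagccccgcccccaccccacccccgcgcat
Vcl (chr14:20929148-20929247, plus strand, CArG box): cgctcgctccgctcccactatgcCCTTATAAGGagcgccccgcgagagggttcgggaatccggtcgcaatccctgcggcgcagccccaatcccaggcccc
In Slc7a11 the 2 amino acid elements lie on opposite strands, the first starting 66 bases before the gene start. In Srf, which encodes the factor itself, 2 CArG boxes stand close together, the first starting 82 bases before the start, and Myl9 and Vcl each carry 1.

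Contractile and actin-linked genes, which serum response factor is known to control, rose together. Acta2, smooth muscle α-actin, was at 50.2, 54.8 and 52.5 FPKM in the DMSO libraries and 377, 375 and 362 FPKM in the MLN4924 libraries. Its groups did not overlap (2.7996 ± 0.039, adjusted p = 7.68e-07), a 6.96-fold difference on the FPKM + 1 scale. Tagln, transgelin, was at 3.73, 2.73 and 2.38 FPKM with DMSO and 29.1, 30.5 and 28 FPKM with MLN4924 (2.95 ± 0.13, adjusted p = 3.35e-05). Myl9, a myosin light chain, was at 6.07, 6.39 and 6.13 FPKM with DMSO and 35.1, 31.2 and 29.9 FPKM with MLN4924 (2.198 ± 0.069, adjusted p = 1.39e-05). Neither pair of groups overlapped. Actg2, smooth muscle γ-actin, went from 0.05 ± 0.0866 to 1.98 ± 0.34 FPKM. Srf rose from 15.5 ± 1.02 to 29.1 ± 0.806 FPKM (0.87 ± 0.057, adjusted p = 0.000128) and Tpm1, tropomyosin, from 182 ± 2.43 to 307 ± 10.3 FPKM. The abundant cytoplasmic Actb was also higher, from 1000.4 ± 48.2 to 1499 ± 25.3 FPKM (0.58 ± 0.039, adjusted p = 0.000138). In all, 23 of 31 tested members of the list rose and 1 fell, with a median log2 difference of 0.36. Acta2 is also a marker of peritubular and smooth muscle cells, and the other called markers of that list fell (6 of 8 tested). The summed level of the list, Acta2 included, was 2704 to 2748 FPKM with MLN4924 against 3697 to 3813 FPKM with DMSO.

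Focal adhesion and actin crosslinking genes followed, with 21 of 34 higher and 4 lower (median log2 difference 0.23). Tns3, a tensin, rose from 13.8 ± 0.962 to 29.6 ± 1.395 FPKM, and Flna, filamin A, from 85.99 ± 5.197 to 168 ± 5.14 FPKM. Zyx, zyxin, rose from 74.2 ± 4.05 to 140.3 ± 4.46 FPKM, and Actn1, α-actinin, from 61.9 ± 10.4 to 100.8 ± 2.54 FPKM (0.71 ± 0.12, adjusted p = 0.00483). Vcl, vinculin, rose by 0.36 ± 0.035, a call that ended in the fit over all 12 libraries (adjusted p = 0.0871). In that fit 14 of 35 tested members of the focal adhesion list were higher and 2 lower. Of 8 tested integrins 3 rose and 3 fell, and 1 was higher in the 12-library fit. Integrin β1 (Itgb1), the common subunit of matrix receptors, rose by 0.52 ± 0.028, whereas Itgb5 and Itgb3 fell, with log2 differences of -0.39 ± 0.064 and -0.59 ± 0.11. Itga11, among the 3 counted as lower, passed the filter through the DMSO libraries alone (-0.98 ± 0.11). Rhoa fell from 256 ± 6.43 to 215 ± 4.24 FPKM (-0.25 ± 0.029, adjusted p = 0.00112) and Rhob from 39.6 ± 3.78 to 20.3 ± 1.69 FPKM (-0.93 ± 0.089, adjusted p = 0.00053). Cdc42ep3, a Cdc42 effector, rose from 8.96 ± 0.548 to 23.1 ± 1.22 FPKM (1.27 ± 0.065, adjusted p = 5.78e-05).

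Several known targets of the YAP coactivator rose strongly. Ccn2, connective tissue growth factor, was at 3.87, 4.69 and 3.91 FPKM in the DMSO libraries and 43.6, 44.8 and 45.4 FPKM in the MLN4924 libraries, far above every control in each treated library (3.15 ± 0.073, adjusted p = 5.4e-06). Ankrd1, a nuclear ankyrin protein, rose from 34.5 ± 1.66 to 131 ± 1.897 FPKM, Ccn1, a secreted matrix-associated protein, from 126 ± 10.1 to 431 ± 3.99 FPKM, and F3, tissue factor, from 24.8 ± 1.14 to 71.01 ± 0.267 FPKM. Yap1 was not called (0.101 ± 0.049, adjusted p = 0.162). Of 29 tested targets 13 rose and 4 fell (median log2 difference 0.25), and 2 were lower in the 12-library fit. Plaur, the urokinase receptor, rose from 14.3 ± 1.54 to 31.3 ± 1.57 FPKM. Id1 and Skil, response genes of BMP and TGF-β, were not called (-0.075 ± 0.059, adjusted p = 0.375, and 0.12 ± 0.082, adjusted p = 0.325).

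Matrix genes moved in both directions. Col1a1, a chain of the main fibrillar collagen, was at 612, 615 and 625 FPKM in the DMSO libraries and 367, 367 and 365 FPKM in the MLN4924 libraries. Both groups were narrow and did not overlap (-0.75 ± 0.021, adjusted p = 9.32e-06). Col1a2, Col3a1, Col6a1 and Col6a2 fell, with log2 differences of -0.67 ± 0.022, -0.62 ± 0.062, -1.09 ± 0.03 and -0.96 ± 0.034, and Col5a3 fell from 13.1 ± 0.673 to 3.39 ± 0.762 FPKM. Of 18 tested collagens 9 fell and 4 rose, with a median of -0.39, and in the fit over all 12 libraries 1 was higher. Of 35 other matrix proteins and crosslinkers 10 rose and 11 fell, and 5 were higher and 7 lower in the 12-library fit. Plod1, a lysyl hydroxylase that prepares collagen, fell from 75.3 ± 1.68 to 41.8 ± 0.771 FPKM and the prolyl hydroxylase P4ha1 from 71.6 ± 2.13 to 50.2 ± 2.53 FPKM. Against these, Thbs1, thrombospondin 1, rose from 41.7 ± 3.17 to 116 ± 4.08 FPKM (1.45 ± 0.059, adjusted p = 2.78e-05). Nid1, the basement membrane linker nidogen 1, rose from 22.1 ± 0.6897 to 51.1 ± 0.777 FPKM (1.17 ± 0.037, adjusted p = 1.39e-05), and Has2, a hyaluronan synthase, from 2.19 ± 0.227 to 4.92 ± 0.155 FPKM. Of 20 matrix proteases, their activators and inhibitors 7 rose and 7 fell. The membrane-bound proteases Adam8 and Adam19 rose by 1.098 ± 0.16 and 1.03 ± 0.066, and the inhibitor Timp1 differed by -0.027 ± 0.036, adjusted p = 0.6.

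Feedback genes of ERK signalling were often higher, and other growth factor response genes moved both ways. Myc, the growth-promoting transcription factor, was at 8.33, 9.05 and 7.02 FPKM in the DMSO libraries and 23.7, 23.6 and 24.2 FPKM in the MLN4924 libraries, all treated libraries above all controls (1.45 ± 0.087, adjusted p = 0.000101). Dusp6, a phosphatase induced by ERK that switches ERK off, was at 12.5, 13.7 and 12.2 FPKM with DMSO and 40, 41.5 and 40.6 FPKM with MLN4924 (1.596 ± 0.052, adjusted p = 1.39e-05), again without overlap. Of 19 ERK feedback genes 11 rose and none fell by limma, nor did any fall at an unadjusted p under 0.05 (median log2 difference 0.56). Among them were Phlda1 (1.79 ± 0.055), Errfi1 (1.23 ± 0.041), Dusp5 (1.06 ± 0.09) and Spry2 (0.698 ± 0.058). The AP-1 member Fosl1 rose from 17.3 ± 1.83 to 37.04 ± 1.58 FPKM and Jun from 20.1 ± 0.876 to 31.7 ± 0.925 FPKM, and Ier5 by 0.96 ± 0.07. Of 17 immediate early factors 7 rose and 4 fell (median 0.04), and 2 were lower in the 12-library fit. Fos, present at a low level, fell from 5.397 ± 0.517 to 3.74 ± 0.218 FPKM (-0.43 ± 0.092, adjusted p = 0.0127). Of 11 KLF factors 2 rose and 4 fell, with 1 higher without DMSO replicate 3 or MLN4924 replicate 2 or 3. Klf10 fell from 14.8 ± 0.361 to 6.74 ± 0.131 FPKM and Klf5 rose from 2.24 ± 0.215 to 5.26 ± 0.0436 FPKM. Of 26 secreted growth and vasoactive factors 11 rose and 5 fell (median 0.0992). Without DMSO replicate 2 the higher count was 6, and without any 1 of the MLN4924 libraries it was 5 or 6 of 24 tested. The EGF receptor ligand Hbegf rose by 0.61 ± 0.055, and Vegfa did not differ beyond its spread (-0.013 ± 0.072, adjusted p = 0.904).

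Wnt, Notch and clock genes were often lower. Of 16 Wnt pathway genes 7 fell and 1 rose (median -0.30). Wnt4, a ligand, fell from 4.897 ± 0.182 to 1.41 ± 0.1301 FPKM and the receptor Fzd1 from 8.77 ± 0.207 to 3.93 ± 0.177 FPKM. Sfrp2, a secreted Wnt modulator, fell from 101.9 ± 2.67 to 55.5 ± 1.52 FPKM, and Ctnnb1, β-catenin, from 220.5 ± 4.67 to 174 ± 4.86 FPKM (-0.34 ± 0.031, adjusted p = 0.000425). Of 9 Notch pathway genes 4 fell and 1 rose, led by Notch3 (-1.003 ± 0.08). Among clock factors Bhlhe40 was at 32.5, 30.3 and 30.7 FPKM with DMSO and 10.1, 11.6 and 10.97 FPKM with MLN4924 (-1.44 ± 0.062, adjusted p = 3.35e-05), without overlap. Dbp fell from 6.32 ± 0.641 to 1.63 ± 0.552 FPKM and Nr1d1 from 20.7 ± 0.261 to 13.6 ± 0.588 FPKM. Per2, which passed the filter through the DMSO libraries alone, went from 2.95 ± 0.0854 to 0.77 ± 0.135 FPKM. Nfil3, a repressor of Dbp targets, rose from 8.02 ± 2.001 to 17.6 ± 2.62 FPKM (1.06 ± 0.17, adjusted p = 0.00473). The clock list had 10 of 16 lower, Per2 included, and 1 higher. Of the 13 members with at least 1 FPKM in all 6 libraries, 8 were lower and 1 higher. The lower count was 5 of 14 tested without DMSO replicate 1 and 6 of 14 without DMSO replicate 2 or 3. Without MLN4924 replicate 1 or 3 it was 6 of 16.

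Many glycolytic genes and other known HIF targets fell. Ldha, lactate dehydrogenase A, was at 1077, 1098 and 1105 FPKM in the DMSO libraries and 649.5, 635 and 630.4 FPKM in the MLN4924 libraries. All treated libraries were below all controls (-0.77 ± 0.023, adjusted p = 1.39e-05). Pgk1, phosphoglycerate kinase, fell from 927 ± 37.1 to 644 ± 20.8 FPKM (-0.52 ± 0.039, adjusted p = 0.00021), and Eno3, muscle enolase, from 43.8 ± 0.386 to 20.6 ± 1.32 FPKM. The lactate exporter Slc16a3 fell from 269.9 ± 11.7 to 141 ± 2.81 FPKM, and Pdk1, the kinase that closes pyruvate dehydrogenase, from 14.2 ± 0.581 to 6.397 ± 0.592 FPKM. In all, 21 of 30 glycolysis genes fell and 1 rose (median log2 difference -0.49).

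Outside glycolysis 20 of 40 tested HIF targets fell and 6 rose (median -0.40). Car9, carbonic anhydrase 9, was at 46.1, 46.97 and 50.95 FPKM with DMSO and 19.2, 20.4 and 19.3 FPKM with MLN4924 (-1.24 ± 0.051, adjusted p = 2.78e-05). Bnip3, a mitophagy receptor, was at 181, 166 and 169 FPKM with DMSO and 80.6, 83.1 and 79 FPKM with MLN4924 (-1.08 ± 0.04, adjusted p = 2.05e-05). Each pair of groups was fully separated. Ppp1r3c, which targets a phosphatase to glycogen, fell from 12.5 ± 0.764 to 3.59 ± 0.406 FPKM, and Ndrg1 from 47.3 ± 0.892 to 23.1 ± 1.75 FPKM. The oxygen sensors Egln1 and Egln3 fell, with log2 differences of -0.46 ± 0.046 and -0.45 ± 0.074. The RNA of HIF-1α was also lower, Hif1a from 46.3 ± 0.557 to 36.99 ± 0.596 FPKM (-0.32 ± 0.031, adjusted p = 0.000611), as was that of its partner Arnt (-0.33 ± 0.063, adjusted p = 0.00808). Epas1, encoding HIF-2α, was at 0.06 FPKM or less in each of the 6 libraries.

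**Figure D4:**
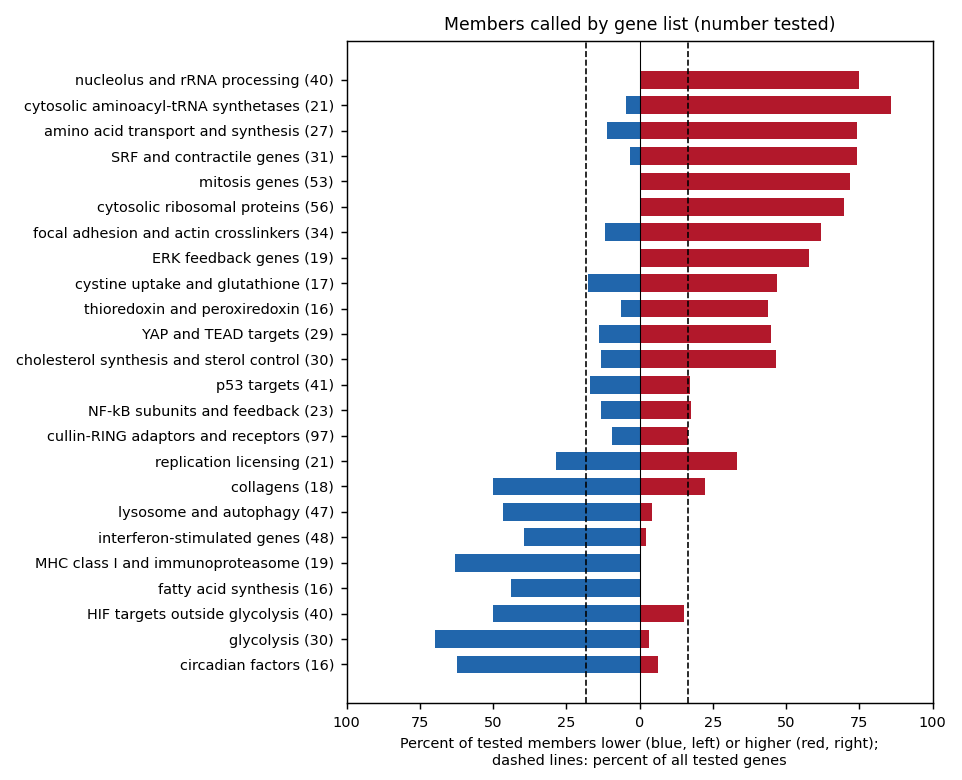
Bars give, for 24 gene lists, the percent of tested members that fell (blue, to the left) or rose (red, to the right) with MLN4924 in normoxia, with the number tested in brackets. Dashed lines mark the shares of all tested genes, 18.4% lower and 16.5% higher, and nucleolar, tRNA synthetase and contractile lists reach far past them to the right while glycolysis reaches past them to the left. The lists were chosen with earlier results of these data known.

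Genes of mitosis rose by small amounts. Of 53 tested members 38 rose and none fell by limma (1 at an unadjusted p under 0.05), with a median log2 difference of 0.32. Ccnb1, cyclin B1, was at 82.2, 83.9 and 81.3 FPKM in the DMSO libraries and 103, 103 and 103 FPKM in the MLN4924 libraries (0.32 ± 0.025, adjusted p = 0.00029). Cdc20, the activator of the anaphase-promoting complex, was at 101.6, 101.5 and 97.2 FPKM with DMSO and 127, 129 and 128 FPKM with MLN4924 (0.35 ± 0.028, adjusted p = 0.000291). Neither pair of groups overlapped. Foxm1, a transcription factor of mitotic genes, rose from 43.7 ± 0.861 to 63.8 ± 0.561 FPKM, and Incenp, of the chromosomal passenger complex, from 35.2 ± 1.68 to 54.3 ± 3.04 FPKM. Mybl2, also a transcription factor of mitotic genes, rose from 13.01 ± 1.08 to 20.2 ± 0.879 FPKM and the kinase Plk1 from 86.2 ± 2.65 to 103 ± 4.52 FPKM (0.25 ± 0.042, adjusted p = 0.00459). Cdk1 was not called (0.21 ± 0.082, adjusted p = 0.0966). With the 12-library fit 22 of the 53 were higher.

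Replication genes had no common direction. Of 21 licensing genes 7 rose and 6 fell (median 0.02) and of 42 fork and S phase genes 11 rose and 7 fell (median 0.08). Mcm2, a helicase subunit, fell from 128 ± 1.47 to 108 ± 1.94 FPKM (-0.24 ± 0.026, adjusted p = 0.000823) and Pole2, a polymerase subunit, from 10.4 ± 2.46 to 4.77 ± 0.645 FPKM. Rrm2, of ribonucleotide reductase, rose from 59.4 ± 2.37 to 87.6 ± 2.26 FPKM (0.55 ± 0.04, adjusted p = 0.000185) and Tyms, thymidylate synthase, from 82.8 ± 5.08 to 111 ± 3.105 FPKM. Cdt1, the licensing factor, was at 44.1, 45.3 and 40.5 FPKM with DMSO and 37.8, 38.9 and 37.98 FPKM with MLN4924, a small fall without overlap (-0.17 ± 0.048, adjusted p = 0.0335). That call ended in the 12-library fit and without any 1 of these 6 libraries except DMSO replicate 3 (adjusted p up to 0.0923). With any 1 of the 6 libraries left out fewer genes were called over all tested genes (3215 to 3342, against 4095). Most of the licensing and S phase counts were then smaller too. The licensing genes that rose numbered 3 or 4 without DMSO replicate 1 or 3 or any MLN4924 library, and those that fell 3 without DMSO replicate 2. The S phase genes that fell numbered 3 or 4 without DMSO replicate 3 or MLN4924 replicate 1 or 2. The 12-library fit called 1 licensing gene higher, and 7 S phase genes higher and 3 lower. The abundant linker histone H1f0, known from resting cells, was at 538, 505 and 525 FPKM with DMSO and 172, 171 and 172 FPKM with MLN4924 (-1.601 ± 0.029, adjusted p = 2.99e-06), with no overlap.

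The CDK inhibitors moved apart. Cdkn1a, which encodes p21, was at 16.7, 18.3 and 15.9 FPKM in the DMSO libraries and 33.1, 33.6 and 30.9 FPKM in the MLN4924 libraries, without overlap (0.905 ± 0.063, adjusted p = 0.000162). Cdkn2b, encoding p15, rose from 15.9 ± 0.155 to 24.9 ± 1.18 FPKM and Cdkn2a from 250.1 ± 5.91 to 307 ± 5.28 FPKM. Cdkn1b, encoding p27, fell from 15.8 ± 0.985 to 12.1 ± 0.0907 FPKM (-0.36 ± 0.058, adjusted p = 0.00422). The pocket proteins Rb1 and Rbl1, which restrain E2F, fell, with log2 differences of -0.39 ± 0.076 and -0.501 ± 0.044, and E2f1 differed by -0.14 ± 0.092, adjusted p = 0.3.

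Other known p53 targets had no common direction. Of 41 tested targets 7 rose and 7 fell, against 16.5% and 18.4% of all genes. Their median log2 difference was -0.0001, and 4 were lower in the 12-library fit. Mdm2, the feedback inhibitor of p53, was at 18.9, 18.6 and 17.8 FPKM with DMSO and 21.6, 18.7 and 18.1 FPKM with MLN4924 (0.072 ± 0.073, adjusted p = 0.488), overlapping. Bax, Bbc3, Ccng1 and Phlda3 differed by 0.0076 ± 0.102, adjusted p = 0.962; 0.12 ± 0.16, adjusted p = 0.588; -0.06 ± 0.052, adjusted p = 0.411; and 0.042 ± 0.055, adjusted p = 0.599. Sesn2 and Plk2 rose by 0.95 ± 0.053 and 0.91 ± 0.048, Sesn2 being also an NRF2 and ATF4 target. Trp53inp2, counted in this list though known as an autophagy factor, fell from 21.5 ± 0.499 to 7.19 ± 0.00577 FPKM (-1.46 ± 0.047, adjusted p = 1.39e-05). Trp53 itself was among the most abundant RNAs, 2084 ± 31.7 FPKM with DMSO and 2149.6 ± 23.2 FPKM with MLN4924 (0.045 ± 0.024, adjusted p = 0.191). It was not called, but quantile normalization turned its sign (-0.12, adjusted p = 0.0165) and median-of-ratios scaling called it higher (0.079, adjusted p = 0.038).

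Cell death genes moved in both directions. Of 8 BH3-only genes 1 rose (Pmaip1) and 4 were lower (Bad, Bmf, Bnip3 and Bnip3l), against 16.5% and 18.4% of all genes. Bnip3 and Bnip3l are also counted among the HIF targets. Bmf, which passed the filter through the DMSO libraries alone, went from 2.04 ± 0.136 to 0.593 ± 0.206 FPKM. The rise of Pmaip1 was not called without DMSO replicate 2 or 3 or MLN4924 replicate 1. Of 9 multidomain BCL2 family members 1 rose and none fell by limma (1 at an unadjusted p under 0.05). None rose without any 1 of the 6 libraries, with the replicate block or in the 12-library fit, and 2 fell without DMSO replicate 2. Of 18 caspases, apoptosome parts and their inhibitors 2 rose and 2 fell, with 1 higher without DMSO replicate 3 or MLN4924 replicate 1 or 2 and 1 lower without DMSO replicate 3. The lower count of BH3-only genes was 2 of 7 tested without DMSO replicate 2 or 3, where Bmf did not pass the filter. Casp8 was not called (0.199 ± 0.11, adjusted p = 0.205), nor were Bcl2 (0.019 ± 0.12, adjusted p = 0.92) and Bak1 (-0.057 ± 0.071, adjusted p = 0.578). Htra2, a mitochondrial protease released in apoptosis, rose from 28.9 ± 0.765 to 42.2 ± 1.16 FPKM (0.53 ± 0.039, adjusted p = 0.000199) and Diablo, an antagonist of inhibitors of apoptosis, fell from 26.7 ± 0.605 to 22.3 ± 0.9999 FPKM. Among death receptors Tnfrsf12a, the TWEAK receptor, rose from 183 ± 2.77 to 248 ± 9.14 FPKM, and Tnfrsf1a fell from 77.2 ± 1.26 to 62.9 ± 3.19 FPKM. Fas (-0.15 ± 0.12, adjusted p = 0.4) and Tnfrsf10b (-0.052 ± 0.073, adjusted p = 0.624) were not called. The RNA data hold no count of dead cells.

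Interferon-stimulated and MHC genes were often lower. Of 23 NF-kB subunits and feedback genes 4 rose and 3 fell (median 0.03), with Tnfaip3, the feedback inhibitor A20, up from 2.97 ± 0.451 to 7.17 ± 1.64 FPKM and Nfkbie at a log2 difference of -0.55 ± 0.096. Of 48 interferon-stimulated genes 19 fell and 1 rose (median -0.17), and 10 were lower in the 12-library fit. Ifit1, an antiviral RNA-binding protein, was at 83.4, 76.9 and 90 FPKM in the DMSO libraries and 53.8, 56.1 and 52.2 FPKM in the MLN4924 libraries, without overlap (-0.61 ± 0.061, adjusted p = 0.000635). Ifit3 fell from 91.6 ± 12.7 to 50.2 ± 2.396 FPKM and Oas2 from 14.2 ± 1.99 to 5.14 ± 1.47 FPKM. Irf7, a transcription factor induced by interferon, differed by -0.069 ± 0.085, adjusted p = 0.573. Of 19 MHC class I and immunoproteasome genes 12 fell and none rose by limma, none rising at an unadjusted p under 0.05 either (median -0.27). H2-K1 fell from 538 ± 19.8 to 382 ± 12.5 FPKM, and H2-T23 and Psmb9 had log2 differences of -0.96 ± 0.08 and -0.86 ± 0.13. Of 11 chemokines 4 fell and 1 rose. The chemokines Ccl7, Ccl2 and Cxcl12 fell, with log2 differences of -0.79 ± 0.067, -0.498 ± 0.053 and -0.39 ± 0.025, and Cxcl10, itself induced by interferon, rose from 95.3 ± 6.11 to 149 ± 6.38 FPKM (0.64 ± 0.054, adjusted p = 0.000346). Related H2 genes may share fragments, so their separate levels are uncertain.

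Growth machinery rose in the nucleolus and ribosome. Of 40 nucleolar and rRNA processing genes 30 rose and none fell by limma, nor at an unadjusted p under 0.05, with a median log2 difference of 0.48. Nop58, a core box C/D protein, was at 37.8, 36.7 and 39.7 FPKM with DMSO and 65.1, 66.3 and 66.2 FPKM with MLN4924 (0.78 ± 0.038, adjusted p = 4.71e-05), without overlap. Mybbp1a, Rrs1 and Rrp9 rose by 0.93 ± 0.043, 0.83 ± 0.054 and 0.79 ± 0.07. The abundant Ncl, nucleolin, rose from 284 ± 12.2 to 367 ± 22.2 FPKM. Of 56 cytosolic ribosomal proteins 39 rose and none fell by limma, nor at an unadjusted p under 0.05, each by little (median 0.20), and the 12-library fit called 4 higher. Ribosomal protein genes have many processed copies that may share fragments.

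Among chaperones 13 of 23 heat shock genes rose and 4 fell (median 0.25). The mitochondrial chaperones Hspd1 and Hspa9 rose from 155 ± 2.82 to 240.2 ± 1.73 FPKM and from 182 ± 0.941 to 276 ± 2.99 FPKM. The stress-inducible Hspa1a fell from 5.36 ± 0.375 to 3.64 ± 0.18 FPKM (-0.45 ± 0.084, adjusted p = 0.00728). Without DMSO replicate 1 or 3 or MLN4924 replicate 1 or 3 the lower count was 2. Of 32 proteasome subunits 15 rose and 1 fell, by small amounts (median 0.11). Quantile normalization gave 8 higher and 6 lower, rescaling to 1 total 9 higher and the 12-library fit 2 higher. Psmd8 rose from 92.8 ± 2.71 to 133 ± 3.97 FPKM (0.51 ± 0.035, adjusted p = 0.000157), and the catalytic subunit Psmb5 differed by 0.0096 ± 0.041, adjusted p = 0.88. Lysosomal and autophagy genes were lower, 22 of 47 against 2 higher (median -0.25). Atp6v0d1, a subunit of the proton pump, was at 56.8, 59.04 and 57.4 FPKM with DMSO and 25.4, 29.4 and 26.5 FPKM with MLN4924 (-1.07 ± 0.058, adjusted p = 6.72e-05), with no overlap. Tfeb, the transcription factor of the lysosomal gene network, fell from 6.2 ± 0.831 to 2.88 ± 0.753 FPKM. The membrane protein Lamp1 fell from 385 ± 11.1 to 321 ± 4.899 FPKM and the protease Ctsd from 423 ± 8.29 to 336 ± 5.53 FPKM.

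Sterol and fatty acid synthesis moved apart. Of 30 cholesterol genes 14 rose and 4 fell (median 0.13). The synthesis enzymes Msmo1, Cyp51 and Sqle rose from 35.2 ± 1.35 to 62.7 ± 1.497 FPKM, from 28.3 ± 1.07 to 42.8 ± 1.73 FPKM and from 50.6 ± 1.02 to 65.4 ± 2.23 FPKM. Of the 30, 9 were higher in the 12-library fit. Of 16 fatty acid synthesis genes 7 fell and none rose by limma, nor at an unadjusted p under 0.05 (median -0.28). Scd1, the stearoyl-CoA desaturase, was at 311, 296 and 306 FPKM in the DMSO libraries and 178, 179 and 178 FPKM in the MLN4924 libraries, without overlap (-0.77 ± 0.026, adjusted p = 1.4e-05). Acsl3 and Gpam, of fatty acid activation and glycerolipid synthesis, had log2 differences of -0.68 ± 0.042 and -0.37 ± 0.05. Srebf1, a transcription factor of lipid synthesis, fell from 29.01 ± 0.457 to 17.1 ± 1.65 FPKM (-0.74 ± 0.069, adjusted p = 0.000499), and the cholesterol exporter Abca1 from 6.38 ± 1.02 to 3.93 ± 0.0493 FPKM.

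The response in normoxia was then compared with that in hypoxia by the interaction term of a 12-library fit, which tests whether the log2 differences differ. Of 12311 genes 232 (1.88%) passed, 114 with a more positive effect in normoxia (0.926%) and 118 with a more negative one (0.958%). DMSO hypoxia replicate 1 stood apart from its group, with a mean rank correlation of 0.926 and a total of 633597 FPKM, and without it 270 and 408 genes passed. Without any 1 of the 6 normoxia or the 3 MLN4924 hypoxia libraries, 48 to 73 and 42 to 58 passed. Of 4095 genes called in normoxia 162 had an interaction call: 39 had the same sign and a smaller size in hypoxia, 26 the same sign and a larger size, and 97 the opposite sign. By calls alone 1920 genes moved the same way in both oxygen conditions and 88 in opposite ways. Here the normoxia calls came from the 6-library fit and the hypoxia calls from the 12-library fit. In the 12-library fit 1149 genes were higher and 1318 lower in normoxia, and 1498 higher and 1639 lower in hypoxia.

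Among the lists, mitosis and interferon genes had the most interaction calls. In hypoxia, where 12.2% of all genes rose and 13.3% fell, MLN4924 lowered 28 of the 53 mitosis genes and raised 2 (median log2 difference -0.30, against 0.32 in normoxia). Of the 53, 20 had an interaction call, all more positive in normoxia. Without DMSO hypoxia replicate 1 these counts were 34 lower, 3 higher and 36 interaction calls. Cdc20, for example, had a log2 difference of -0.62 ± 0.06 in hypoxia (interaction 0.97 ± 0.085, adjusted p = 0.00143), and Ccnb1 one of -0.48 ± 0.051 (interaction 0.79 ± 0.073, adjusted p = 0.00146). Of the 48 interferon-stimulated genes 27 were higher and 1 lower in hypoxia (median 0.44, against -0.17 in normoxia), with 15 interaction calls, all more negative in normoxia. Without that replicate there were 31 higher, 1 lower and 30 interaction calls. Ifit1 had a log2 difference of 0.58 ± 0.084 in hypoxia (interaction -1.19 ± 0.12, adjusted p = 0.00178) and Ifit3 one of 0.56 ± 0.12 (interaction -1.41 ± 0.17, adjusted p = 0.00396).

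**Figure D5:**
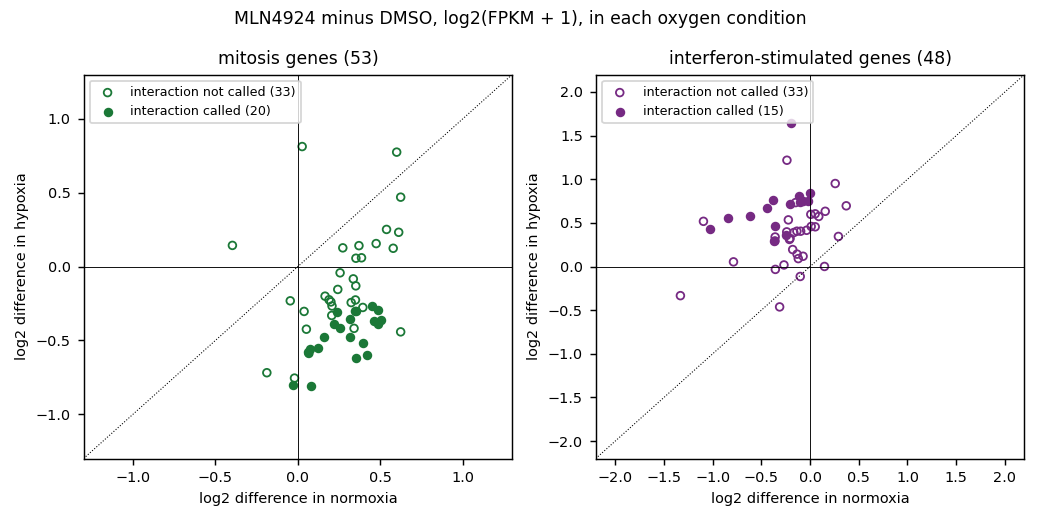
Each point is a mitosis gene (left, 53) or an interferon-stimulated gene (right, 48), with its MLN4924 minus DMSO log2 difference in normoxia on the x axis and in hypoxia on the y axis, both from the 12-library fit. Filled points passed the interaction test (20 and 15), all of them below the dotted line of equality for mitosis genes and above it for interferon genes.

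Single genes differed too. Cdkn1a rose in normoxia but had a log2 difference of -0.25 ± 0.062 in hypoxia (interaction 1.15 ± 0.088, adjusted p = 0.000852), and Trib3 one of -0.35 ± 0.094 (interaction 1.42 ± 0.13, adjusted p = 0.00146). Slc7a11, Chac1, Asns and Psat1 rose more in normoxia, with interactions of 1.22 ± 0.16, adjusted p = 0.00641; 1.01 ± 0.11, adjusted p = 0.00198; 0.896 ± 0.101, adjusted p = 0.0023; and 0.61 ± 0.067, adjusted p = 0.00202. Acta2 and Srxn1 had a smaller rise in normoxia than in hypoxia, where their log2 differences were 3.82 ± 0.083 and 1.97 ± 0.053 (interactions -1.02 ± 0.12, adjusted p = 0.00257; and -0.55 ± 0.075, adjusted p = 0.00659). Prl2c2, Ccn2 and Txnrd1 rose in hypoxia as well, by 4.41 ± 0.15, 2.99 ± 0.082 and 1.84 ± 0.089, and Edn1 was higher there by 2.51 ± 0.093. Their interactions were not called (0.23 ± 0.21, adjusted p = 0.638; 0.16 ± 0.12, adjusted p = 0.557; -0.025 ± 0.13, adjusted p = 0.941; and -0.0081 ± 0.13, adjusted p = 0.984). The fall of Ldha was also seen in hypoxia (-0.76 ± 0.082; interaction -0.019 ± 0.12, adjusted p = 0.953), whereas Eno3, which fell in normoxia, had -0.055 ± 0.067 in hypoxia (interaction -1.001 ± 0.094, adjusted p = 0.00146). Each of the interaction calls named here held with any 1 of the 12 libraries left out.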

How the data were processed

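RNA was sequenced from GC-2 cells in 4 groups of 3 libraries, MLN4924 or DMSO in normoxia or hypoxia. Values are FPKM per gene, deposited by the authors in 1 table of 24770 genes. The submitters' processing notes name fastp, STAR, RSEM 1.3.3 and mm39, without their order or settings, and the counts behind the FPKM were not used here. Whole reads could not be recovered (49.4% of low values were within 0.1 of a whole multiple of the gene's lowest value, where an even spread gives 20.00%), so no count test was run. FPKM as deposited were taken to log2 with a pseudocount of 1. Genes that reached 1 FPKM in 3 or more of the 6 normoxia libraries were tested with limma 3.58.1 in R 4.3.3 (moderated test, intensity trend, two-sided, Benjamini-Hochberg over all tested genes, threshold 0.05), and the interaction with oxygen was fitted over all 12 libraries. The scripts were checked on simulated data. An exact permutation test of 3 against 3 libraries cannot give a p under 0.1, so none is reported. The sample titles gave the groups. Genes were named by rule: the 15 largest rises and falls among called genes without overlap whose higher group averaged 5 FPKM or more, and per list up to 4 called members with the largest change plus members always named. Vcl was named for its promoter match. Some genes that met the rule are not reported here. The members and lists were chosen with earlier results of these data known. Alternatives were another pseudocount, other filters, 3 scalings, other prior variances, a replicate block, the 12-library fit and each library left out. Promoters and coordinates are RefSeq's, on GRCm38.p6.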

Additional observations from a re-analysis of the deposited data

Results flagged for a closer look

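Each gene named in the report or in the other observations and listed here is one whose response to MLN4924 differed between normoxia and hypoxia by limma's interaction term (adjusted p under 0.05 over 12311 genes, of which 1.88% passed). Values in brackets are the normoxia minus the hypoxia log2 difference, with 3 libraries in each of 4 groups. More positive in normoxia, and called with any 1 of the 12 libraries left out, were Nr1d1 (1.82), Sprr1a (1.64), Trib3 (1.42), Slc7a11 (1.22), Cdkn1a (1.15), Chac1 (1.01), Cdc20 (0.97), Asns (0.896), Ccnb1 (0.79), Plk1 (0.67), H1f0 (0.62) and Psat1 (0.61). More negative in normoxia, and likewise called each time, were Rgcc (-1.58), Ifit3 (-1.41), Ifit1 (-1.19), H19 (-1.096), Cxcl10 (-1.06), Acta2 (-1.02), Eno3 (-1.001), Irf7 (-0.82), Ppp1r3c (-0.76) and Srxn1 (-0.55). The calls of the others ended with 1 library left out, which for at least 1 gene was each library except DMSO hypoxia replicate 1, with the highest adjusted p between 0.0524 and 0.127. Of these, Lce1g (1.75), Dbp (1.19), Maff (0.81), Tuba1c (0.73), Atf4 (0.62), Cdc42ep3 (0.505), Eif4ebp1 (0.49), Jun (0.47) and Mthfd2 (0.45) were more positive in normoxia, and Star (-2.13), Inpp5j (-1.12), Igfbp5 (-0.93), Nqo1 (-0.59), Mcm2 (-0.49), Idh1 (-0.43), Bhlhe40 (-0.43), Cdt1 (-0.37) and Gclc (-0.36) were more negative.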

How the results depend on the processing

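The split of called genes into higher and lower depended on the scaling: median-of-ratios scaling called 2212 higher and 1884 lower (54% higher, against 47.3% as deposited), rescaling all libraries to 1 total 1721 and 2372, and quantile normalization 1990 and 2063. The fit over all 12 libraries called 1149 genes higher and 1318 lower, and leaving out 1 of the 6 libraries gave 1518 to 1659 higher and 1586 to 1777 lower. Same-numbered libraries showed no shared shift (correlation of same-numbered deviations 0.0256, 0.0171 and -0.0283), which cannot show whether they were prepared as pairs. A fit with the replicate block called 1630 higher and 1764 lower in normoxia and, for the interaction, 56 more negative genes. Leaving out 1 of the 12 libraries gave 48 to 270 genes with a more positive and 42 to 408 with a more negative interaction. Counts of list members in hypoxia without DMSO hypoxia replicate 1 were added after seeing the data. Of the named genes called in normoxia, 220 of 235 kept their call and sign in every setting that gave them a value, which for 22 of the 235 was not every setting because the filter dropped them, and 8 of these had no value with a library of their higher group left out. Calls ended for 7 genes with at least 1 library left out, and Trp53, not called, turned to -0.12 under quantile normalization. For these shifts the cause was not tested. Depth is unknown from FPKM, so the precision of low genes cannot be given, and 3 libraries per group, not stated to be separate cultures, limit every comparison.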

Other observations

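Prostaglandin, steroid and tubulin genes were counted as smaller lists. Beside Ptgs2, the phospholipase Pla2g4a, which frees arachidonic acid, rose from 26.5 ± 0.539 to 47.9 ± 1.32 FPKM (0.83 ± 0.037, adjusted p = 3.75e-05) and Ptgs1, the constitutive cyclooxygenase, from 17.2 ± 0.275 to 21.7 ± 0.577 FPKM, while the prostaglandin E synthase Ptges fell from 7.57 ± 0.391 to 4.59 ± 0.591 FPKM (-0.62 ± 0.099, adjusted p = 0.00419). Of 8 tested genes of the pathway 5 rose and 1 fell, against 16.5% and 18.4% of all genes, and 3 rose without MLN4924 replicate 1 or 2. Of 7 steroidogenic genes 5 fell and none rose by limma (1 at an unadjusted p under 0.05), among them Star, Fdxr, ferredoxin reductase (from 31.99 ± 1.76 to 21.1 ± 1.25 FPKM), and Tspo, a mitochondrial outer membrane protein (from 429.6 ± 8.42 to 304 ± 7.52 FPKM), and 3 were lower in the 12-library fit. Of 19 tubulins and microtubule regulators 8 rose and 4 fell, and 6 were higher and 1 lower in the 12-library fit. Map1a and Map2, microtubule-associated proteins, fell (-0.69 ± 0.057 and -0.65 ± 0.12), calls that ended in that fit (adjusted p = 0.178 and 0.336). Tubb5 and Tuba1c, abundant tubulins, rose from 561 ± 9.42 to 912 ± 12.4 FPKM and from 218 ± 6.94 to 326 ± 3.49 FPKM (0.701 ± 0.024, adjusted p = 1.4e-05; and 0.58 ± 0.03, adjusted p = 5.81e-05), and Stmn1, which takes up free tubulin, differed by -0.016 ± 0.035, adjusted p = 0.766.

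Secreted factors and single transcripts outside the main lists also moved. Igfbp6 and Igfbp5, binding proteins of insulin-like growth factors, fell from 191 ± 8.05 to 90.3 ± 6.46 FPKM and from 4.14 ± 0.384 to 1.02 ± 0.09504 FPKM, and Hgf, hepatocyte growth factor, fell from 3.54 ± 0.0751 to 1.26 ± 0.327 FPKM (-1.02 ± 0.13, adjusted p = 0.0018). H19, an imprinted non-coding RNA, was at 8.89, 7.71 and 9.14 FPKM with DMSO and 2.46, 2.1 and 1.68 FPKM with MLN4924 (-1.64 ± 0.12, adjusted p = 0.000209), without overlap. The small proline-rich gene Sprr2a2, which has near-identical neighbours that may share fragments, fell from 9.54 ± 1.13 to 2.45 ± 1.27 FPKM. Of 23 mTORC1 components and regulators 2 rose and 6 fell, with 3 lower without DMSO replicate 1 or 3 and 1 in the 12-library fit. Among them the translation repressor Eif4ebp1 rose from 39.8 ± 1.65 to 62.1 ± 1.92 FPKM (0.63 ± 0.043, adjusted p = 0.000151) and Castor2, of the arginine-sensing family, fell from 7.48 ± 0.399 to 4.91 ± 0.0929 FPKM (-0.52 ± 0.07, adjusted p = 0.00206).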
